A study of Mus musculus with 16 samples.

Results

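Purine breakdown was followed here through 10 mouse genes: Xdh, Aox1, Gda, Pnp, Ada, Ampd3, Nt5e, Adss, Adk and Hprt. They were picked by name as enzymes that act on purines or beside them, at a time when the difference between the untreated genotypes, and that of Xdh in particular, was already known from these arrays. All array probes of these genes were used, 13 probes of the 56605 on the array, and the 10 genes stand among 22911 to which probes could be matched. All 13 passed the filter on dim probes, as did 27581 probes in all. Total RNA came from primary podocytes, the filtering epithelial cells of the glomerulus, grown out of bead-isolated glomeruli of male Jcl:ICR mice in explant culture. In Tsc2Δpodocyte mice, loxP-flanked exons of Tsc2 are removed by a Cre that is active in podocytes. The Tsc2flox/flox mice carry the flanked gene and no Cre, so that Cre itself is not controlled for. The untreated groups, 4 samples each, came from mice 4 weeks old, and the groups with rapamycin, 4 samples each, from mice 5 weeks old after 1 week of the drug, an inhibitor of mTORC1. No source says that each sample was a mouse of its own, and the spread on which the p-values rest may therefore be technical. All untreated arrays lay on 1 slide and all treated arrays on another, so that treatment, age and slide cannot be told apart, and on each slide the row of the array went with genotype.

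Purine nucleotides are broken down by stripping phosphate, amino groups and sugar until hypoxanthine and xanthine remain, and xanthine dehydrogenase oxidises both to urate. In its oxidase form the same enzyme passes electrons to oxygen and makes superoxide and hydrogen peroxide. Salvage enzymes work against this flow by joining free bases or adenosine to phosphate again, and mTORC1 is known to promote the making of new purines.

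The deleted gene checked the labels. On the brighter of the probes for Tsc2, the log2 signal relative to the 75th percentile of the array, the scale used throughout, was between 1.93 and 2.31 in untreated Tsc2Δpodocyte samples and between 2.95 and 3.71 in untreated Tsc2flox/flox samples, and with rapamycin between 2.05 and 2.73 against 2.83 and 3.65. Whether the probes lie in the deleted exons was not determined. Arrays of a group correlated at r from 0.979 to 0.992, and the 75th percentile of the signal lay between 349 and 468. All 14 podocyte markers of a list were measured, and 1 of them, Plce1, rose in untreated Tsc2Δpodocyte samples and 2, Plce1 and Podxl, with rapamycin (adjusted p under 0.05 in limma). Their summed signal, in multiples of the 75th percentile, lay between 181 and 357 over the 16 arrays. The cultures also held signal of other cells. The summed signal of 12 endothelial markers ran from 13.7 to 99.4 in untreated Tsc2Δpodocyte samples and from 9.92 to 122 in untreated Tsc2flox/flox samples, with 99.4 in Tsc2Δpodocyte replicate 3 and 122 in Tsc2flox/flox replicate 1. With rapamycin it was between 7.02 and 11.5 against 7.73 and 15.7. Of 11 proximal tubule markers 4 were bright enough to test, and Slc34a1, Slc5a12 and Slc22a6 were well above background on 0 of 16 arrays. The summed signal of those 4 was between 1.19 and 2.16 against 1.94 and 2.31 without treatment, and with rapamycin between 1.19 and 1.37 against 1.88 and 2.67, so that each treated Tsc2Δpodocyte array lay below each treated Tsc2flox/flox array. Lrp2, the endocytic receptor megalin, fell in both comparisons. The other tested tubule markers passed in neither and did not all point down. Aqp1 gave -0.32 without treatment and -2.13 with rapamycin, Gatm 0.29 and 0.33, and Cubn 0.11 and -0.07. Of 10 mesangial and smooth muscle markers 3 rose without treatment and 1 with rapamycin, of 12 macrophage and leukocyte markers 2 and 0 rose, and of 9 parietal epithelial markers Pax8 and Cdh6 fell in both. Of all tested probes 9.59% rose and 8.42% fell without treatment, and 5.70% and 4.59% with rapamycin, so that nothing is read from the marker counts. Some listed markers pointed down without passing in untreated samples, such as Cspg4 at -0.96, Itgam at -0.52 and the podocyte marker Nphs1 at -1.07. The part of these cells in the differences described next was not tested.

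Xdh, which encodes xanthine dehydrogenase (chr17:73883895-73950397, GRCm38.p6), was low in Tsc2flox/flox podocytes and far higher in Tsc2Δpodocyte podocytes, with and without rapamycin. On its brighter probe, A_51_P312121, the log2 signal was -0.33, -0.98, -0.01 and 0.16 in untreated Tsc2Δpodocyte samples and -4.31, -5.12, -4.90 and -4.44 in untreated Tsc2flox/flox samples. The groups lay far apart, and 1 of the 4 Tsc2flox/flox values was not well above background. With rapamycin the values were -0.04, -0.92, -2.57 and -1.92 in Tsc2Δpodocyte samples and -3.79, -2.91, -3.88 and -4.17 in Tsc2flox/flox samples. Replicates 1 and 2 of treated Tsc2Δpodocyte lay within the untreated range and replicates 3 and 4 lay below all of them, while all 4 stood above every treated Tsc2flox/flox sample. Across arrays of bulk cultures, fewer cells of a type and less RNA per cell cannot be told apart.

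The difference of the untreated genotypes at this probe was 4.40 on the log2 scale (standard error 0.45, n = 4 each), or 21.2-fold. The lowest signal well above background on the untreated Tsc2flox/flox arrays lay between -5.26 and -4.45, near their Xdh values. The size of this difference therefore rests on the background correction. The difference belongs to the contrast that was known when the genes were picked and is given as a description. The treated arrays are not part of that contrast. On them Xdh was 5.00-fold higher in Tsc2Δpodocyte podocytes, a log2 difference of 2.32 (standard error 0.45, limma adjusted p = 0.00794, 2-sided exact permutation p = 0.0286, the smallest that 4 arrays against 4 allow). The size depended on the background correction, and was 1.20 under normexp. The adjusted p was 0.0947 under the methods' t-test and passed under the other alternatives in which the probe could be fitted. The genotype difference with rapamycin minus that without was -2.08 (standard error 0.64, given without a test). Treated minus untreated samples gave -1.07 (standard error 0.45) in Tsc2Δpodocyte, with overlapping ranges, and 1.01 (standard error 0.45) in Tsc2flox/flox, with ranges that did not overlap. In order of their means the groups ran from untreated Tsc2Δpodocyte at -0.29 over treated Tsc2Δpodocyte at -1.36 and treated Tsc2flox/flox at -3.68 to untreated Tsc2flox/flox at -4.69. Only the 2 Tsc2Δpodocyte groups, neighbours in this order, overlapped.

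A second probe of Xdh, A_55_P2739092, measured the transcript dimly and was not well above background on any Tsc2flox/flox array. Its values were -3.54, -4.01, -3.21 and -3.14 in untreated Tsc2Δpodocyte samples and -3.38, -4.17, -4.64 and -4.76 in treated ones, all 8 well above background. Tsc2flox/flox samples lay between -7.29 and -6.55 without and between -7.33 and -7.20 with rapamycin, 0 of 8 well above background, so that no fold change was measured. Against a floor, untreated Tsc2Δpodocyte podocytes were 2.69-fold higher, and treated ones 1.86-fold higher. The probe passed the filter on dim probes through the Tsc2Δpodocyte groups alone, so that it had to differ, and no p is given for it. For this floor each dim array counts with the lowest signal among its probes well above background. The folds are no strict lower bounds, since a probe not well above background can lie above that floor. Normexp gave a log2 difference of 0.43 between the treated genotypes. The 2 probes moved together over the 16 arrays (Pearson r = 0.950, across arrays that share groups and slides, as a description), but the higher values of treated over untreated Tsc2flox/flox samples rest on the brighter probe, since the dim one was not well above background there.

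**Figure D1:**
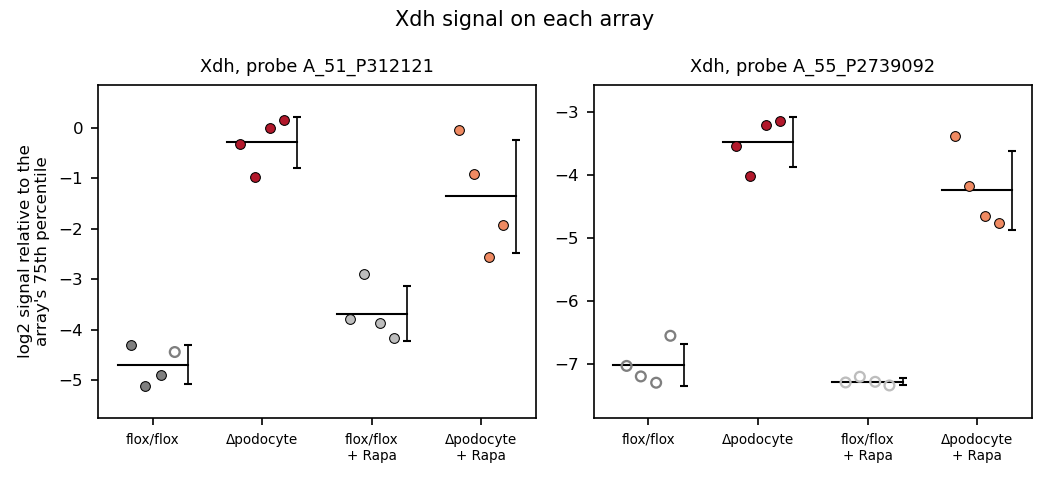
Log2 signal of both Xdh probes relative to the 75th percentile of each array (y axis) in the 4 groups (x axis, Rapa for rapamycin). Points are arrays, open where the probe was not well above background, lines are means and bars SDs (n = 4). Tsc2Δpodocyte arrays stand above Tsc2flox/flox arrays of the same treatment on both probes, and the treated Tsc2Δpodocyte arrays spread from -2.57 to -0.04 on the left.

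Beside Xdh, the genes Aox1, Gda and Ampd3 stood higher in untreated Tsc2Δpodocyte podocytes, and the stretches around their starts are shown so that motifs of factors known to answer to mTORC1 or to oxidative stress can be looked for in them. RefSeq sequences on GRCm38.p6, from 250 bases before to 50 after a start, matched 9 of the 10 genes, all but Xdh, with 12 starts in all. The Aox1 stretch is chr1:58029719-58030018 on the plus strand, that of Gda chr19:21472612-21472911 on the minus strand, and that of Ampd3, the second of its starts, chr7:110772354-110772653 on the plus strand. Each is written 5′ to 3′ along its gene, with motifs in capitals.
Aox1: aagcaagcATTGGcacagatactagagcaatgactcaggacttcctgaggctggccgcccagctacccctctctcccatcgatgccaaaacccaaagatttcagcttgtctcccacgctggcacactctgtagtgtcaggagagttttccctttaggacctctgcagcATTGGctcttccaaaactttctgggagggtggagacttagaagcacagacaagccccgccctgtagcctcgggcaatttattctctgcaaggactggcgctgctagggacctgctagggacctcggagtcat
Gda: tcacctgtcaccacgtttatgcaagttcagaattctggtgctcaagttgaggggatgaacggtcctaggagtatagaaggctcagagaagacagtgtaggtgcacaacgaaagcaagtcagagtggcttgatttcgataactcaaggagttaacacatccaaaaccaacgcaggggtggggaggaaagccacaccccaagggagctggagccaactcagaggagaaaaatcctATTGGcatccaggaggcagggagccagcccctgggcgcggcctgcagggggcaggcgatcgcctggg
Ampd3: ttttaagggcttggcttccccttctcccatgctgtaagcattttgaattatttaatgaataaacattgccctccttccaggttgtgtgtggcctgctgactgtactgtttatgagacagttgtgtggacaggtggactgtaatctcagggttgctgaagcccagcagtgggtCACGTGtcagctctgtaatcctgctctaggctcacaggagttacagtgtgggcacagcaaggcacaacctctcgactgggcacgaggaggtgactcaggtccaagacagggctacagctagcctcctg

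The capitals mark the CCAAT box in Aox1 and Gda, read there on the opposite strand as ATTGG, and the E-box CACGTG in Ampd3. The E-box, which MITF/TFE and MYC factors bind, lies at position -78 from the second Ampd3 start. The E-box is absent from the other Ampd3 starts, which are not shown and hold only a CCAAT box each, and from all other members. It thus stands at 1 of the 12 member starts, and 7.15% of all 32851 RefSeq promoters of this length hold it. The CCAAT box, at -242 and -82 in Aox1 and at -17 in Gda, is found at 8 of the 12 member starts, in 6 of the 9 genes, and in 37.4% of all promoters. Of the 6 motifs searched on both strands, TGACNNNGC, the core of the antioxidant response element, was found in Adk alone (12.4% of all promoters), ATTGCNCAA, a C/EBP site, in Pnp alone (0.597%), and neither TATAAA (13.6%) nor TGATGNAA, a C/EBP-ATF site (3.97%), in any. A match describes letters and not a bound site, and different motifs did not overlap each other in these stretches.

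Aox1, a molybdenum-containing aldehyde oxidase built like xanthine dehydrogenase (chr1:58029809-58106410), was highest in untreated Tsc2Δpodocyte samples, at 0.15, 0.12, 0.25 and 0.43. Untreated Tsc2flox/flox samples were at -0.66, -1.60, -0.62 and -0.74, a difference of 1.15 (standard error 0.26) or 2.21-fold. No untreated Tsc2flox/flox array reached the Tsc2Δpodocyte range, and replicate 2 lay well below the other three. With rapamycin, Aox1 stood at -0.55, -1.14, -0.73 and -1.26 in Tsc2Δpodocyte samples and at -1.35, -2.34, -1.34 and -1.18 in Tsc2flox/flox samples. These ranges overlapped, and the difference of 0.64 (standard error 0.26) missed the threshold (limma adjusted p = 0.138, 95% interval 0.07 to 1.20, 2-sided exact permutation p = 0.0571). Normexp background correction gave 0.65 with an adjusted p of 0.0459. Treated samples were lower than untreated ones in both genotypes, with differences of -1.16 in Tsc2Δpodocyte and -0.65 in Tsc2flox/flox (standard error 0.26 each), and with separate ranges in Tsc2Δpodocyte. The paralogue Aox3 was well above background on 0 of 16 arrays, and Aox2 and Aox4 on 1 and 3.

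Gda encodes guanine deaminase, which turns guanine into xanthine (chr19:21391307-21472661). The genotypes lay apart without treatment and were interleaved with rapamycin. Untreated Tsc2Δpodocyte samples measured 0.52, 1.92, -0.41 and 0.68 and untreated Tsc2flox/flox samples -0.56, -1.55, -1.42 and -1.54. All 4 Tsc2Δpodocyte values were higher, the closest pair being -0.41 and -0.56, and the difference was 1.94 (standard error 0.42), 3.85-fold. Treated samples measured -0.76, 0.04, -0.54 and -0.25 against -1.19, 0.33, -0.33 and -0.38. The Tsc2Δpodocyte range lay inside that of Tsc2flox/flox, and the difference was 0.01 (standard error 0.42, limma adjusted p = 0.989, 95% interval -0.89 to 0.91). The genotype difference with rapamycin minus that without was -1.93 (standard error 0.59, given without a test). Treated minus untreated samples gave -1.06 in Tsc2Δpodocyte and 0.88 in Tsc2flox/flox (standard error 0.42 each), both with overlapping ranges. Untreated Tsc2flox/flox replicate 1, the highest of its group, was the array with the most endothelial signal. Without it and Tsc2Δpodocyte replicate 3, the lowest of its group, the untreated difference was 2.54 (standard error 0.39). These arrays, left out after the data were seen, hold the closest pair of values, so that the difference had to grow. The part of endothelial cells in it was not tested.

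Ampd3, an AMP deaminase that turns AMP into IMP (chr7:110767790-110812409), was about as far apart between the genotypes with rapamycin as without. On its brighter probe, A_55_P2942204, untreated Tsc2Δpodocyte samples were at 1.61, 1.92, 2.63 and 2.09 and untreated Tsc2flox/flox samples at 1.46, 0.96, 0.85 and 1.33, a difference of 0.92 (standard error 0.25) with separate ranges. Treated samples were at 2.46, 2.47, 2.61 and 1.84 against 1.16, 2.10, 1.28 and 1.19. Of the treated Tsc2flox/flox samples replicate 2 alone reached into the Tsc2Δpodocyte range. The difference with rapamycin was 0.91 (standard error 0.25, limma adjusted p = 0.0359), 1.88-fold. On the other probe, A_52_P502754, untreated Tsc2Δpodocyte samples lay between -2.23 and -1.32 and untreated Tsc2flox/flox samples between -3.19 and -2.52, a difference of 1.14 (standard error 0.24). Treated Tsc2Δpodocyte samples at -1.82, -1.88, -1.40 and -2.42 stood against -2.76, -2.35, -2.90 and -3.18, a difference of 0.92 (standard error 0.24, limma adjusted p = 0.0298). Each probe had a 2-sided exact permutation p of 0.0571. This call is close to the threshold. It was lost on both probes when treated Tsc2Δpodocyte replicate 1 or 3 or treated Tsc2flox/flox replicate 1, 3 or 4 was left out (adjusted p between 0.0535 and 0.0967), and in the fit on the 8 treated arrays alone (0.0640 and 0.0710).

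Adss, an adenylosuccinate synthetase on the way from IMP to AMP (chr1:177763176-177796695), was lower in untreated Tsc2Δpodocyte samples. These measured 1.58, 0.69, 1.29 and 1.41 and the Tsc2flox/flox samples 2.06, 2.08, 1.91 and 2.01. The ranges were separate, and the difference was -0.77 (standard error 0.16). With rapamycin the values were 1.56, 1.97, 1.54 and 1.49 against 1.85, 2.04, 1.95 and 1.99, with replicate 2 of treated Tsc2Δpodocyte among the Tsc2flox/flox values. The treated difference of -0.32 (standard error 0.16) missed the threshold (limma adjusted p = 0.220, 95% interval -0.66 to 0.02).

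None of the 5 other genes passed with rapamycin. Pnp, the purine nucleoside phosphorylase that frees hypoxanthine and guanine from their nucleosides (chr14:50944303-50953412), ran from 3.63 to 4.06 over all 16 arrays, with a difference of 0.05 (standard error 0.10) between the treated genotypes and of -0.00 (standard error 0.10) between the untreated ones. Hprt, which salvages hypoxanthine and guanine into IMP and GMP (chrX:52988078-53021660), differed by 0.16 (standard error 0.10, 95% interval -0.04 to 0.36) with rapamycin and by 0.23 (standard error 0.10) without. Untreated Tsc2Δpodocyte samples, from 5.15 to 5.41, did lie just above the untreated Tsc2flox/flox samples, from 4.94 to 5.14. Ada, the adenosine deaminase (chr2:163726571-163750239), ran from 0.36 to 1.16 on its brighter probe and differed with rapamycin by 0.15 (standard error 0.13) and -0.01 (standard error 0.16) on its 2 probes, and Adk, the adenosine kinase (chr14:21052574-21448569), by 0.35 (standard error 0.18, 95% interval -0.03 to 0.73). Treated Tsc2Δpodocyte samples of Adk, from 0.73 to 1.03, overlapped treated Tsc2flox/flox samples, from 0.17 to 0.82, and the untreated difference was 0.09 (standard error 0.18). The limma adjusted p of these 4 genes with rapamycin was between 0.233 and 0.981. The 95% intervals of Pnp, Hprt and Ada lay within 1.5-fold in either direction and that of Adk reached beyond it.

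Nt5e, the surface nucleotidase CD73 that makes adenosine from AMP (chr9:88327609-88372089), had its highest values on the arrays with the most endothelial signal. Untreated Tsc2Δpodocyte samples were at -1.39, -1.59, -0.06 and -1.09 and untreated Tsc2flox/flox samples at -0.21, -1.13, -1.70 and -1.05. The value of -0.06 is Tsc2Δpodocyte replicate 3 and that of -0.21 is Tsc2flox/flox replicate 1, whose endothelial sums were 99.4 and 122, and the lowest, -1.70, is Tsc2flox/flox replicate 3, whose sum was 9.92. Untreated Tsc2flox/flox replicates 2 and 4, with the next highest sums of 49.4 and 53.9, were only at -1.13 and -1.05. Treated Tsc2flox/flox replicates 1, 3 and 4 stood higher than these, at -0.69, -0.49 and -0.71, with sums of 7.84, 14.6 and 15.7. The part of endothelial cells in these values was not tested. With rapamycin Nt5e was at -1.22, -0.80, -1.11 and -1.18 against -0.69, -1.03, -0.49 and -0.71, a difference of -0.35 (standard error 0.32, limma adjusted p = 0.530, 95% interval -1.02 to 0.33). Entpd1, the surface enzyme CD39 that supplies AMP to CD73, was likewise highest on the same pair of arrays, at -2.07 and -2.01, against -5.06 to -3.34 on the other untreated arrays.

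**Figure D2:**
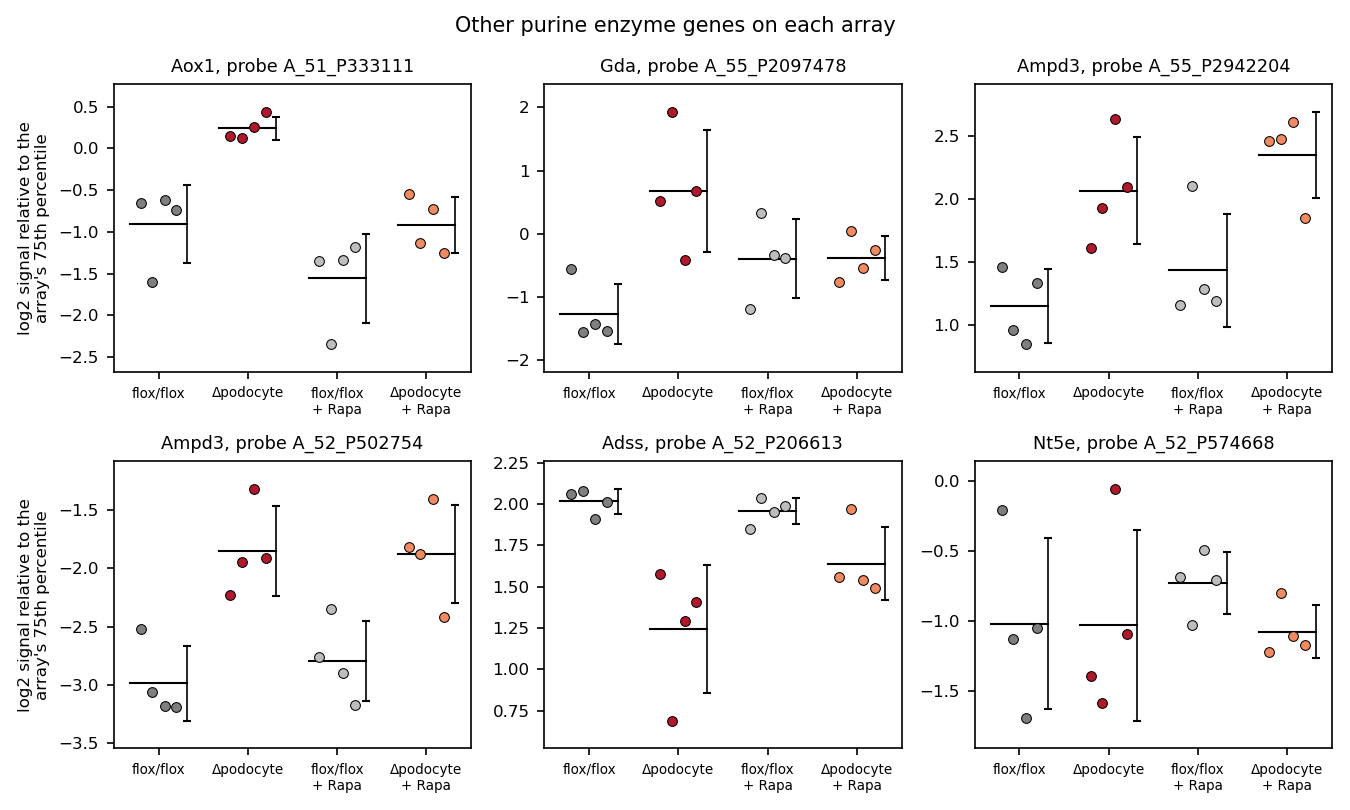
Log2 signal relative to the 75th percentile of each array (y axis) of Aox1, Gda, both Ampd3 probes, Adss and Nt5e in the 4 groups (x axis). Points are arrays, lines means and bars SDs (n = 4). Aox1 is lower in both treated groups, the treated groups of Gda overlap, and 1 array of each untreated group stands high in Nt5e.

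Over the 10 genes, 4 passed as higher and 1 as lower in untreated Tsc2Δpodocyte podocytes (limma, adjusted p under 0.05), where 18.0% of all tested probes passed (9.59% higher, 8.42% lower), and 8 of the 13 probes had separate ranges, as did 24.6% of all probes. As the genes were picked with this contrast known, nothing is read from that. With rapamycin, 2 of the 10 genes passed as higher, Xdh and Ampd3, by 4 of 13 probes, of which the dimmer Xdh probe passed the filter only where it was high, and 0 as lower, against 5.70% of all probes higher and 4.59% lower. The median difference of the 13 probes was 0.16 with rapamycin, against -0.00 over all probes. Separate ranges were found for the 2 Xdh probes alone, the dimmer one among them, against 17.1% of all probes (9.72% with all 4 Tsc2Δpodocyte values higher). Between treated and untreated samples 1 gene passed in Tsc2Δpodocyte podocytes, Aox1, as lower (3.38% of all probes passed, 1.97% lower), and 0 in Tsc2flox/flox podocytes (0.156% of all probes). Separate ranges between treated and untreated samples were those of Aox1 in Tsc2Δpodocyte (13.4% of all probes) and of the brighter Xdh probe in Tsc2flox/flox (10.7% of all probes). For the interaction of genotype and rapamycin 0 members passed in limma, and 0.00363% of all probes, which is 1 probe. An unadjusted p under 0.05 was found for 2030 of the 27581 tested probes, where chance alone gives about 1 in 20. These last counts share arrays with the contrast that was known.

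**Figure D3:**
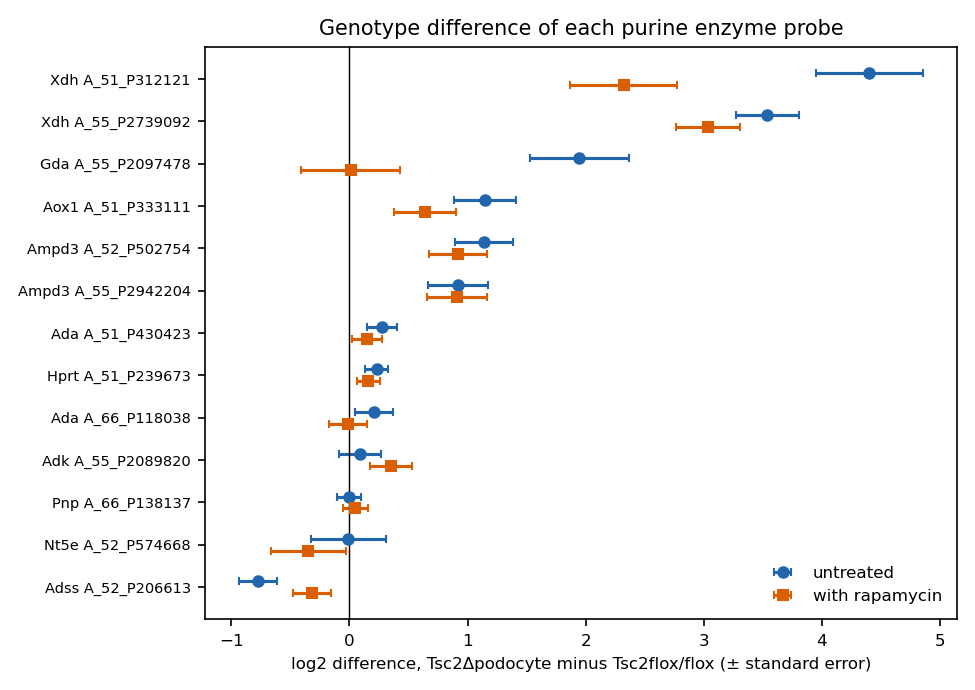
Log2 difference between Tsc2Δpodocyte and Tsc2flox/flox samples (x axis) for each of the 13 probes (y axis), with the standard error from limma as bars. Circles are untreated and squares treated samples (4 arrays a group). The values of the dimmer Xdh probe, A_55_P2739092, are fitted against arrays where it was not well above background and are no measured size. Xdh and Ampd3 lie to the right of 0 in both, and Gda in untreated samples alone.

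The rest of the pathway was described through 88 genes in 7 lists, written from textbook knowledge with earlier results of these arrays known, of which 69 had a probe bright enough to test. Without treatment 9 of these 69 rose and 1 fell in Tsc2Δpodocyte podocytes (limma, adjusted p under 0.05, brightest probe of each gene), which is 14.5% against 18.0% of all probes. Here and below, the share of all probes counts each tested probe, also those matched to no gene, while the 69 are counted by gene. The median of the 69 differences was 0.09, against -0.02 over all probes. The contrast without treatment was known when the lists were written, so that its p-values here and for the genes named next describe it and are no independent support. Uox and Entpd7 passed the filter on dim probes only through the Tsc2Δpodocyte groups, where they were higher, and are given without a p, although the counts include them.

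Mocos, the sulfurase that puts the sulfur onto the molybdenum cofactor and so makes xanthine dehydrogenase and aldehyde oxidases active, was the 1 of 8 molybdenum cofactor genes that rose. It was at 0.89, 0.90, 0.95 and 1.02 in untreated Tsc2Δpodocyte samples and at 0.28, -0.52, -0.11 and 0.00 in untreated Tsc2flox/flox samples. The groups did not overlap, and the difference was 1.03 (standard error 0.14, limma adjusted p = 0.000424), 2.04-fold. With rapamycin Mocos was at 0.61, 0.66, 0.74 and 0.36 against 0.00, 0.07, 0.33 and 0.25. All 4 Tsc2Δpodocyte values were above all 4 others, and the difference of 0.43 (standard error 0.14) missed the threshold (limma adjusted p = 0.0699). The change of the difference, -0.60, did not pass either (adjusted p = 0.624 for the interaction).

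Of 15 salvage and interconversion genes 2 rose without treatment and the same 2 with rapamycin, Ak4 and Ak3, the adenylate kinases of the mitochondrial matrix. Ak4 was at 3.11, 4.29, 3.25 and 3.24 against 0.73, 1.23, 0.39 and 0.70 without treatment, and at 2.53, 1.70, 2.78 and 2.19 against 0.26, -0.11, 0.97 and 0.77 with rapamycin. The groups were far apart on both slides, by 2.71 (standard error 0.31, limma adjusted p = 0.000125) or 6.54-fold without and 1.83 (standard error 0.31, adjusted p = 0.00420) or 3.55-fold with the drug. Ak4 is also a known target of HIF1. Ak3 differed by 0.58 (standard error 0.08, adjusted p = 0.000539) and 0.46 (standard error 0.08, adjusted p = 0.00602). Aprt, which salvages adenine, gave -0.28 without treatment (adjusted p = 0.0818) and 0.00 with rapamycin (adjusted p = 0.997).

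Of the 14 genes of purine synthesis, 2 rose and 1 fell without treatment. Adssl1, the muscle-type adenylosuccinate synthetase, moved the other way from its paralogue Adss, with a difference of 0.82 (standard error 0.15, limma adjusted p = 0.00269). Impdh1, an IMP dehydrogenase, rose by 0.32 (standard error 0.09, adjusted p = 0.0318), and Gmps, which makes GMP from the product of IMP dehydrogenase, fell by 0.29 (standard error 0.08, adjusted p = 0.0255). The calls of the last 2 depended on single arrays. Impdh1 was lost without Tsc2Δpodocyte replicate 1, 3 or 4 or Tsc2flox/flox replicate 1 or 4 (adjusted p between 0.0509 and 0.0901), and Gmps without Tsc2Δpodocyte replicate 2 or 4 or Tsc2flox/flox replicate 2 (between 0.0619 and 0.0781). Ppat, the first committed enzyme of the pathway, gave -0.20 (adjusted p = 0.545) and Impdh2 -0.08 (adjusted p = 0.755). With rapamycin 1 of the 14 passed, Adssl1 at 0.51 (standard error 0.15, adjusted p = 0.0494), and it passed in 3 of the 16 fits that left out 1 array each, with an adjusted p of up to 0.149. Ppat and Impdh2 then gave 0.28 and 0.01 (adjusted p = 0.433 and 0.980).

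Of 12 genes of extracellular and luminal nucleotide breakdown 3 rose without treatment. Entpd4, a Golgi and lysosomal diphosphohydrolase, differed by 0.81 (standard error 0.15, limma adjusted p = 0.00290), Cant1, a Golgi nucleotidase, by 0.52 (standard error 0.16, adjusted p = 0.0373), and Enpp1, which makes pyrophosphate and AMP from ATP outside the cell, by 0.74 (standard error 0.24, adjusted p = 0.0428). Cant1 was lost without Tsc2Δpodocyte replicate 1 or 2 or Tsc2flox/flox replicate 1, 2 or 4 (adjusted p up to 0.113), and Enpp1 passed in 7 of the 16 fits that left out 1 array each (adjusted p up to 0.112). With rapamycin none of these passed on the brightest probe, and Entpd7, a relative of Entpd4, was the 1 gene of the list counted, at 0.94 (standard error 0.22), with 3 of 4 treated and 2 of 4 untreated Tsc2flox/flox arrays well above background. A dimmer probe of Entpd4 did pass with rapamycin (0.54, adjusted p = 0.0143), and Entpd7 was no longer counted without treated Tsc2flox/flox replicate 3. Entpd1 gave -0.25 and -0.93 (adjusted p = 0.807 and 0.350).

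Uox, the urate oxidase that degrades the product of xanthine dehydrogenase in mice, was dim. It was at -3.54, -3.76, -3.16 and -2.95 in untreated Tsc2Δpodocyte samples and at -6.87, -4.34, -4.24 and -4.62 in untreated Tsc2flox/flox samples, of which 2 were well above background. The ranges were separate, by a fitted difference of 1.66 (standard error 0.52), which was 1.05 without Tsc2flox/flox replicate 1, the lowest array. Uox was no longer counted without that array, any 1 of the 4 Tsc2Δpodocyte replicates or Tsc2flox/flox replicate 4. With rapamycin the difference was 0.68, with 3 of 4 Tsc2flox/flox arrays well above background. Of the other 4 tested genes of urate breakdown and transport, and of 8 cytosolic nucleotidases and related genes, 0 passed in either genotype comparison (limma).

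Adora2a, an adenosine receptor that raises cAMP, was the 1 gene of the transport and receptor list that passed, and only among treated samples was the difference past the threshold. Untreated samples lay close together, from -3.33 to -3.02 in Tsc2Δpodocyte and from -3.39 to -3.11 in Tsc2flox/flox (difference of 0.10, adjusted p = 0.868). Treated Tsc2Δpodocyte samples were at -4.20, -4.41, -3.84 and -3.41 and treated Tsc2flox/flox samples at -2.80, -1.04, -2.76 and -3.03. The treated groups did not overlap. Treated Tsc2Δpodocyte values lay below the untreated range. Treated Tsc2flox/flox values lay above it, save replicate 4 at -3.03, which lay within it. Replicate 2 of treated Tsc2flox/flox stood far above the rest. The difference was -1.56 (standard error 0.34, limma adjusted p = 0.0122) and -1.10 with an adjusted p that still passed without that replicate. The interaction of -1.66 missed the threshold (adjusted p = 0.615), so that a change of the genotype difference with rapamycin is not shown. Slc29a1, the main nucleoside transporter of cell membranes, gave -0.63 without treatment (adjusted p = 0.0659) and -0.67 with rapamycin (adjusted p = 0.0728).

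With rapamycin 4 of the 69 genes thus rose and 1 fell, 7.25% against 10.3% of all probes, with a median of 0.08 against -0.00 over all probes. For the interaction 0 of the 69 passed in limma, where 1 probe of all passed. Between treated and untreated Tsc2Δpodocyte podocytes 1 of the 69 passed, Ak1, the cytosolic adenylate kinase, which fell by 0.56 (standard error 0.15, adjusted p = 0.0487), and 0 passed in Tsc2flox/flox podocytes.

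**Figure D4:**
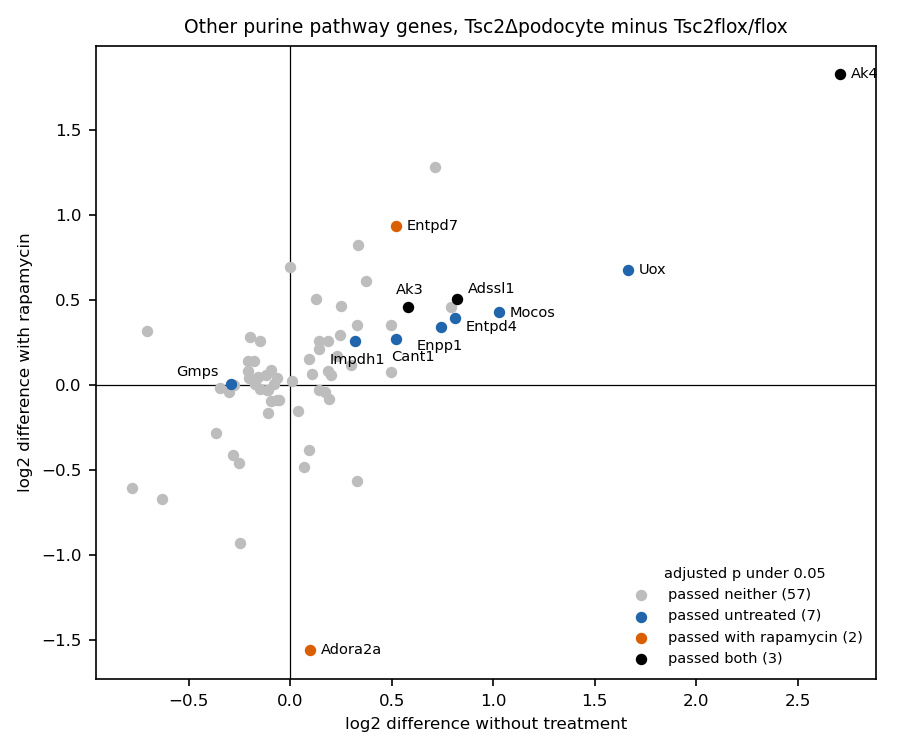
Log2 difference between Tsc2Δpodocyte and Tsc2flox/flox samples with rapamycin (y axis) against that without treatment (x axis) for the 69 tested pathway genes, 1 point a gene at its brightest probe. Of these 57 passed in neither comparison, 7 without treatment, 2 with rapamycin and 3 in both, and Ak4 lies farthest to the upper right.

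**Figure D5:**
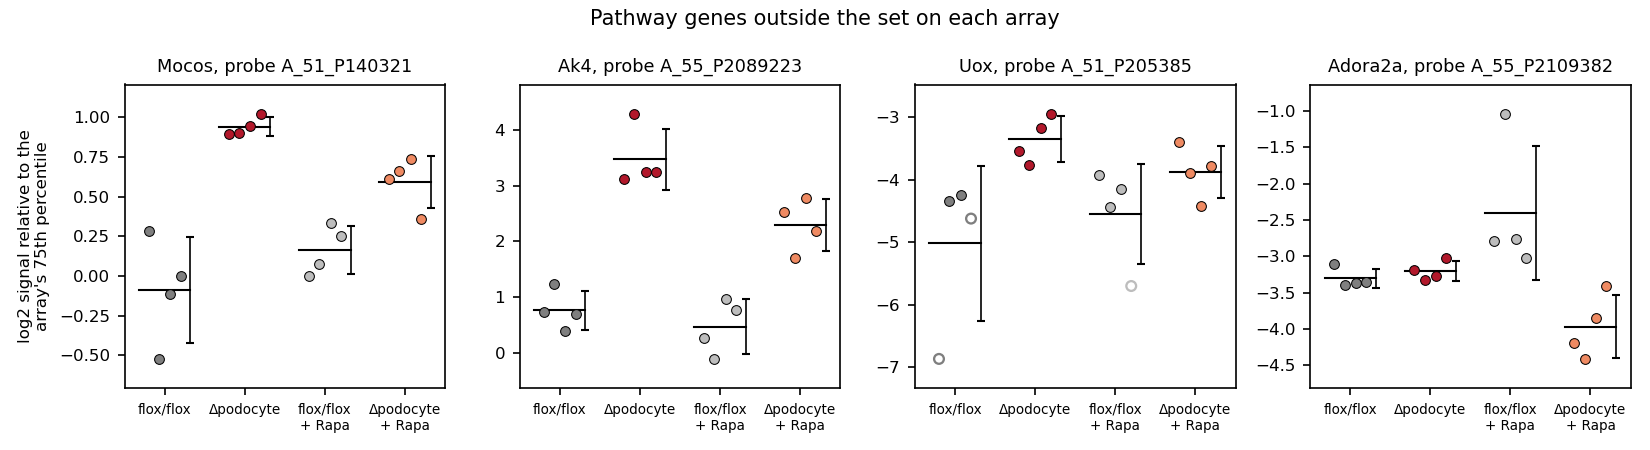
Log2 signal relative to the 75th percentile of each array (y axis) of Mocos, Ak4, Uox and Adora2a in the 4 groups (x axis). Points are arrays, open where not well above background, lines means and bars SDs (n = 4). Ak4 is separate by genotype in both treatments, and Adora2a splits by genotype among the treated arrays.

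The genes whose signal followed that of Xdh most closely were named by Pearson r between brightest probes over the 16 arrays, which share groups and slides. The 10 highest were Gucy1b2 at 0.948, Rassf3 at 0.939, Pon3 at 0.921, Tuba4a at 0.921, Slc7a11 at 0.919, Gss at 0.912, Gbe1 at 0.910, Gch1 at 0.908, Gsta2 at 0.908 and Chchd10 at 0.908. Slc7a11 is the cystine transporter, Gss the glutathione synthetase, Gsta2 a glutathione transferase, and Gch1 the enzyme that starts tetrahydrobiopterin synthesis from GTP. Most of this likeness is that of the groups. After the group means were taken off, r was 0.698 for Tuba4a, 0.600 for Gucy1b2 and 0.547 for Slc7a11, and lower for the other seven, down to -0.21 for Chchd10. Among the purine genes Mocos came closest at 0.883 (0.182 within groups), before Ak3 at 0.858 (-0.22), Adssl1 at 0.825 (0.016), Ak4 at 0.801 (-0.51), Entpd4 at 0.793 (-0.10) and Ampd3 at 0.792 (0.456).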

How the data were processed

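Total RNA of 16 podocyte cultures was hybridised to 1-colour Agilent SurePrint G3 mouse arrays, 8 on each of 2 slides. The authors deposited scanner files of Agilent Feature Extraction 10.7.3.1, which hold a linear intensity per spot after background subtraction, and a table of log2 values, centred probe by probe, which correlated with the values used here at r of at least 0.9996 once these were centred alike. That table's direction and centring were read from the values themselves, and it served as an alternative.

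Here values were the log2 processed signal less the log2 75th percentile of its array, without 3671 control spots and without outlier spots, and spots of a probe were averaged. A probe was tested where some group had it well above background on its 4 arrays, as held for 27581 of 56605. Identifiers were matched to RefSeq genes through their accessions (GRCm38.p6). Array number and signal over background limit the precision. In limma 3.58.1 (R 4.3.3) the means of the 4 groups were fitted to the 16 arrays, variances were moderated by eBayes, and p-values were adjusted by Benjamini-Hochberg in each comparison separately. Exact permutation tests were 2-sided over 4 against 4 arrays. The members and lists were chosen with earlier results of these data known, so that differences of the members without treatment, between treatments and in the interaction carry no p. All probes of the 10 members are named, and of the pathway lists up to 4 genes a list past an adjusted p of 0.05, 9 genes needed to read the members, and Ak1, chosen after its values were seen. The fits were tested on simulated data. Alternatives covered normalization, background correction, filters, the deposited values, arrays in the fit, tests, thresholds, the replicate number as a block and each array left out.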

Additional observations from a re-analysis of the deposited data

Results flagged for a closer look

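Of 52 sets of 4 values, each the values of a probe in a group, 6 had a highest or lowest sample so far from the other three that its gap over the range passed Dixon's critical value, and chance alone gives about 1 in 20. Aox1 was lowest on replicate 2 of untreated Tsc2flox/flox, at -1.60, and on replicate 2 of treated Tsc2flox/flox, at -2.34. Treated Tsc2flox/flox replicate 2 was also the highest of its group in Ampd3 on probe A_55_P2942204, at 2.10, and treated Tsc2Δpodocyte replicate 2 the highest in Adss, at 1.97. Untreated Tsc2flox/flox replicate 1, the array with the most endothelial marker signal, was highest in Gda, at -0.56, and lowest in Pnp, at 3.70.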

How the results depend on the processing

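On its brighter probe Xdh stayed higher in treated Tsc2Δpodocyte podocytes in all alternatives in which the probe could be fitted. The dimmer probe did so too, but it passed the filter only through the groups where it was high. Its direction had to be so and is no support. Under normexp the fitted differences were 1.20 and, on the dimmer probe, 0.43, which is less than the fold against a floor given for that probe. The call of the brighter Xdh probe was lost under the methods' t-test (adjusted p = 0.0947). With rapamycin Aox1 passed under normexp (adjusted p = 0.0459), and the other calls that changed are those of Ampd3 and of the pathway genes. The count of members called higher with rapamycin went from 2 to 1 with no filter, when probes had to be well above background on all 16 arrays (which leaves out Xdh), on the 8 arrays of the slide and under the methods' t-test, and ranged from 1 to 2 when arrays were left out. The call of Adss without treatment went from 1 to 0 under the methods' t-test. Pathway genes called higher without treatment went from 9 to 5 with no filter, and ranged from 5 (without Tsc2flox/flox replicate 4) to 9 when arrays were left out. Those called lower, 1, became 2 under quantile normalization, the methods' t-test and the trended and robust prior, 3 under normexp, and 0 with no filter and with a fold of at least 1.5, and ranged from 0 (without Tsc2Δpodocyte replicate 4 or Tsc2flox/flox replicate 2) to 2. With rapamycin, pathway genes called higher went from 4 to 8 under normexp and to 2 with the fold, and ranged from 2 (without treated Tsc2flox/flox replicate 3) to 7 (without treated Tsc2flox/flox replicate 2). Those called lower, 1, became 2 under quantile normalization and 0 on the 8 arrays and under the methods' t-test, and ranged from 1 to 3 (without treated Tsc2Δpodocyte replicate 4). The Xdh interaction of -2.08 was -1.32 under normexp, and ranged from -2.52 to -1.68. The replicate numbers did not pair the samples (same-numbered r from -0.30 to 0.46, over 0.1 in 5 of 16). With the replicate block, pathway genes called lower without treatment went from 1 to 2, and Ampd3 missed on probe A_55_P2942204 with rapamycin (adjusted p = 0.0614). Over all probes, the interaction gave 1 call and 45 under normexp, and treated against untreated Tsc2flox/flox podocytes 43 calls and 938 under normexp, 72 under quantile normalization and 3 with the replicate block. Treated against untreated Tsc2Δpodocyte podocytes gave 932 calls and 2261 under normexp. The causes were not tested. Leaving out both arrays with the most endothelial signal, chosen after seeing the data, kept the members' counts.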
